A study of Mus musculus with 26 samples.

Results

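The 10 hippocampal arrays of vector-injected mice were divided into an immune-high and an immune-low class, and the genes that went with that division are described here. The arrays were selected on a measured value. Each was given a score, the mean log2 value of 4 genes of MHC class II presentation (Cd74, H2-Aa, H2-Ab1 and H2-Eb1), and the 5 arrays with the highest score were set against the 5 with the lowest. These 10 arrays were drawn from 26 in the series, of which 13 were hippocampal. Because the score chose the classes, the difference between them in the 4 scoring genes is no finding, and no p-value is given for any gene between the classes. Tests were made on the 10 injected entorhinal arrays, which the division did not use, and between labelled treatments.

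The study examined whether BDNF, a neurotrophin delivered by lentivirus into the entorhinal cortex, altered gene expression in aged APP transgenic mice, a model of amyloid deposition. Hippocampal arrays came from APP transgenic mice given BDNF (n = 4), APP transgenic mice given GFP (n = 4; eGFP in the sample descriptions), non-transgenic mice given GFP (n = 2) and non-transgenic mice with a sham lesion (n = 3). Tissue was taken 4 weeks after infection, dissected and snap-frozen, and the labels call the replicates of a group biological. The sources used here do not state the promoter of the transgene, the strain, the exact age or the vector dose.

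MHC class II molecules present peptides taken up from outside the cell to CD4+ T cells, and Cd74 is the invariant chain that guides them through the cell. In the brain they are scarce at rest and are carried by microglia after stimulation by interferon gamma, and by macrophages, dendritic cells and B cells that enter the tissue. Interferon gamma also induces MHC class I, the immunoproteasome and families of GTPases that act against intracellular pathogens. In dissected tissue, fewer cells of a type and less RNA per cell cannot be told apart.

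The scores of the immune-high arrays were 11.27 for non-transgenic GFP 1, 10.42 for transgenic GFP 2, 10.20 for transgenic GFP 1, 10.19 for transgenic GFP 3 and 9.70 for non-transgenic GFP 2. The scores of the immune-low arrays were 9.36 for transgenic BDNF 1, 7.77 for transgenic BDNF 2, 7.67 for transgenic BDNF 4, 6.19 for transgenic BDNF 3 and 6.17 for transgenic GFP 4. The 3 sham arrays scored 6.26, 5.92 and 6.25, around the level of the lowest injected arrays. All values below are given in this order of arrays. The last array inside the immune-high class and the first outside it differed by 0.33, whereas the widest gap, 1.59, lay between transgenic BDNF 1 and transgenic BDNF 2. A gap of 1.49 separated transgenic BDNF 4 from transgenic BDNF 3. Transgenic BDNF 1 therefore sat nearer to the immune-high arrays than to the rest of its own class, and the lowest pair of arrays sat at the sham level.

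**Figure D1:**
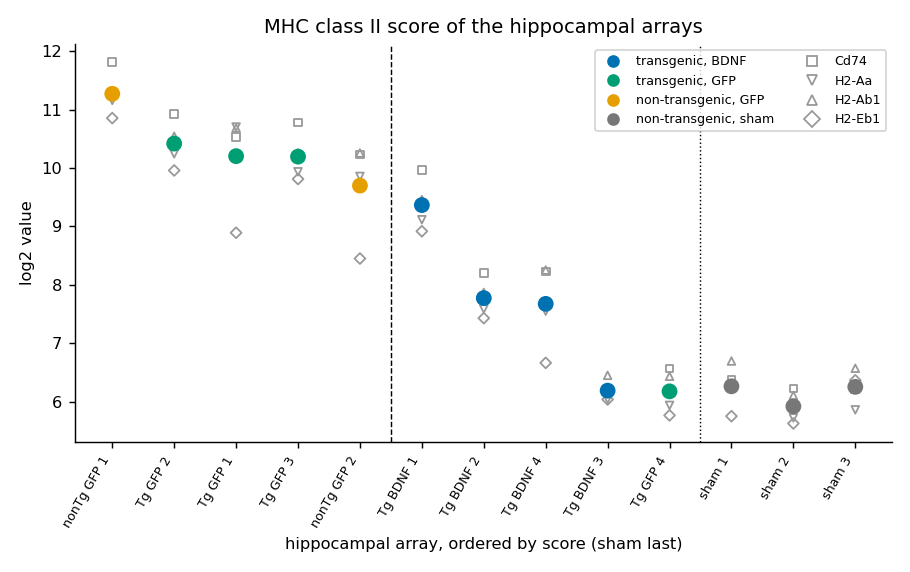
Score of each hippocampal array (large points, mean log2 value of the 4 scoring genes) and the value of each scoring gene (open symbols), ordered by score with the sham arrays last. The dashed line marks the division between 9.70 and 9.36, the colours give the labelled group, and transgenic BDNF 3 and transgenic GFP 4 lie at the level of the sham arrays.

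The classes were unevenly spread over the labelled groups. All 5 immune-high arrays were GFP arrays, 3 transgenic and 2 non-transgenic, and the immune-low class held all 4 BDNF arrays and 1 transgenic GFP array, transgenic GFP 4. Apart from that array, class and vector cannot be told apart. Both non-transgenic injected arrays were immune-high. Xist, the RNA of the inactive X chromosome and a mark of female tissue, was high on 4 of the 5 immune-high and 2 of the 5 immune-low arrays, so the classes also differed in sex composition. With Xist as a covariate, the class differences of 160 named genes and 35 of 36 list medians moved by less than the spread between arrays, and the median of the amyloid processing list went to 0.04. With the labelled groups as a covariate, 51 of 161 gene values and 5 of 36 list medians moved by more than that spread. Whether sex bears on the class differences was not tested.

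Array medians of the 13 hippocampal arrays lay between 5.53 and 5.58, correlations between arrays ran from 0.99 to 0.997, and no pair of arrays held identical values. Granule cell and pyramidal markers of the hippocampus were measured on all 10 arrays, Prox1 at 6.57 to 7.96 and Wfs1 at 9.92 to 10.70. Ttr, a transthyretin gene that marks choroid plexus, read 13.75 on sham array 1 against 7.19 and 8.37 on the other sham arrays, so choroid plexus genes of that array are not used as a reference here.

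A gene was counted as higher where its lowest immune-high array lay above its highest immune-low array, and as lower in the opposite case. Of 14937 genes compared, 166 were higher, 1.11% of the total, and 71 were lower, 0.475% of the total. Since the arrays were ranked by a measured value, these shares are a background and not a test. The higher genes differed by a median of 0.49 log2 units, from 0.07 to 4.56, and 31 of them differed by at least 1. The lower genes differed by a median of -0.17, from -0.74 to -0.06, and only Rps6 differed by as much as 0.5. The median over all genes was -0.01. The higher genes therefore spanned a wide range of sizes, and the lower genes a narrow one. The counts depend on single arrays, because each array left out relaxes the condition: 354 genes were higher without non-transgenic GFP 2, 320 without transgenic GFP 3 and 269 without transgenic BDNF 1. Counts of lower genes rose to 286 without transgenic GFP 3, 249 without transgenic GFP 1, 148 without transgenic GFP 4, 129 without transgenic BDNF 3, 128 without non-transgenic GFP 1, 125 without transgenic BDNF 4, 112 without transgenic GFP 2 and 109 without transgenic BDNF 2.

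Among genes whose arrays did not overlap, the antibody genes Jchain and Igkv8-30 showed the largest differences. Jchain, the chain that joins IgA and IgM into polymers, read 11.00, 11.51, 10.39, 8.76 and 10.89 on the immune-high arrays, 5.77, 7.59, 7.29, 4.39 and 4.73 on the immune-low arrays, and 3.21, 4.42 and 4.03 on the sham arrays. The difference of the class means was 4.56 ± 0.80 (standard error, n = 5 per class). Igkv8-30, an immunoglobulin kappa variable segment, read 11.71, 11.98, 11.36, 9.82 and 11.49 on the immune-high arrays and 7.31, 8.38, 8.01, 5.997 and 6.45 on the immune-low arrays, a difference of 4.04 ± 0.59. Transgenic GFP 3 was the lowest immune-high array for both genes, although its score was close to those of transgenic GFP 1 and 2. Within the immune-low class, transgenic BDNF 2 and 4 were the highest and transgenic BDNF 1 came after them, so antibody genes did not follow the order of the score. The Igkv8-30 probe set belongs to a family of near-identical segments and may read several of them.

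Ighm, the heavy chain of IgM, read 12.12, 12.81, 12.30, 7.22 and 12.44 on the immune-high arrays and 6.77, 7.28, 6.79, 6.58 and 7.50 on the immune-low arrays. The low value of transgenic GFP 3 made its classes overlap, while the other 4 immune-high arrays stood far above every immune-low array. The other Ighm probe sets gave differences from -0.01 to 5.29, all with overlap apart from those that gave 0.98 and 0.72. Igha, the heavy chain of IgA, read 11.31, 12.41, 9.27, 9.86 and 9.67 on the immune-high arrays and 7.20, 9.36, 8.77, 5.58 and 5.73 on the immune-low arrays, and these also overlapped. Mzb1, a chaperone of antibody assembly, read 7.61, 7.77, 7.26, 5.79 and 6.67 against 5.42, 5.63, 5.54, 5.26 and 5.35, and did not overlap. Of 10 B and plasma cell genes past the filter on low values, 3 were higher, against 1.11% of all genes, and their median difference was 0.46, against -0.01 over all genes. Cd79a, part of the B cell receptor, was the third of these, at 4.62 to 4.85 against 4.29 to 4.52, close to the filter level of 4.33. Cd79b did not pass the filter, and Pax5, a B cell transcription factor, differed by -0.02. The remaining members, Ms4a1, Cd22, Derl3 and Tnfrsf17, differed by 0.61, 0.25, 0.14 and 0.08, all with overlap. The mean over the list ran from 6.35 to 7.67 on the immune-high arrays, from 5.21 to 6.07 on the immune-low arrays and from 5.12 to 5.30 on the sham arrays.

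**Figure D2:**
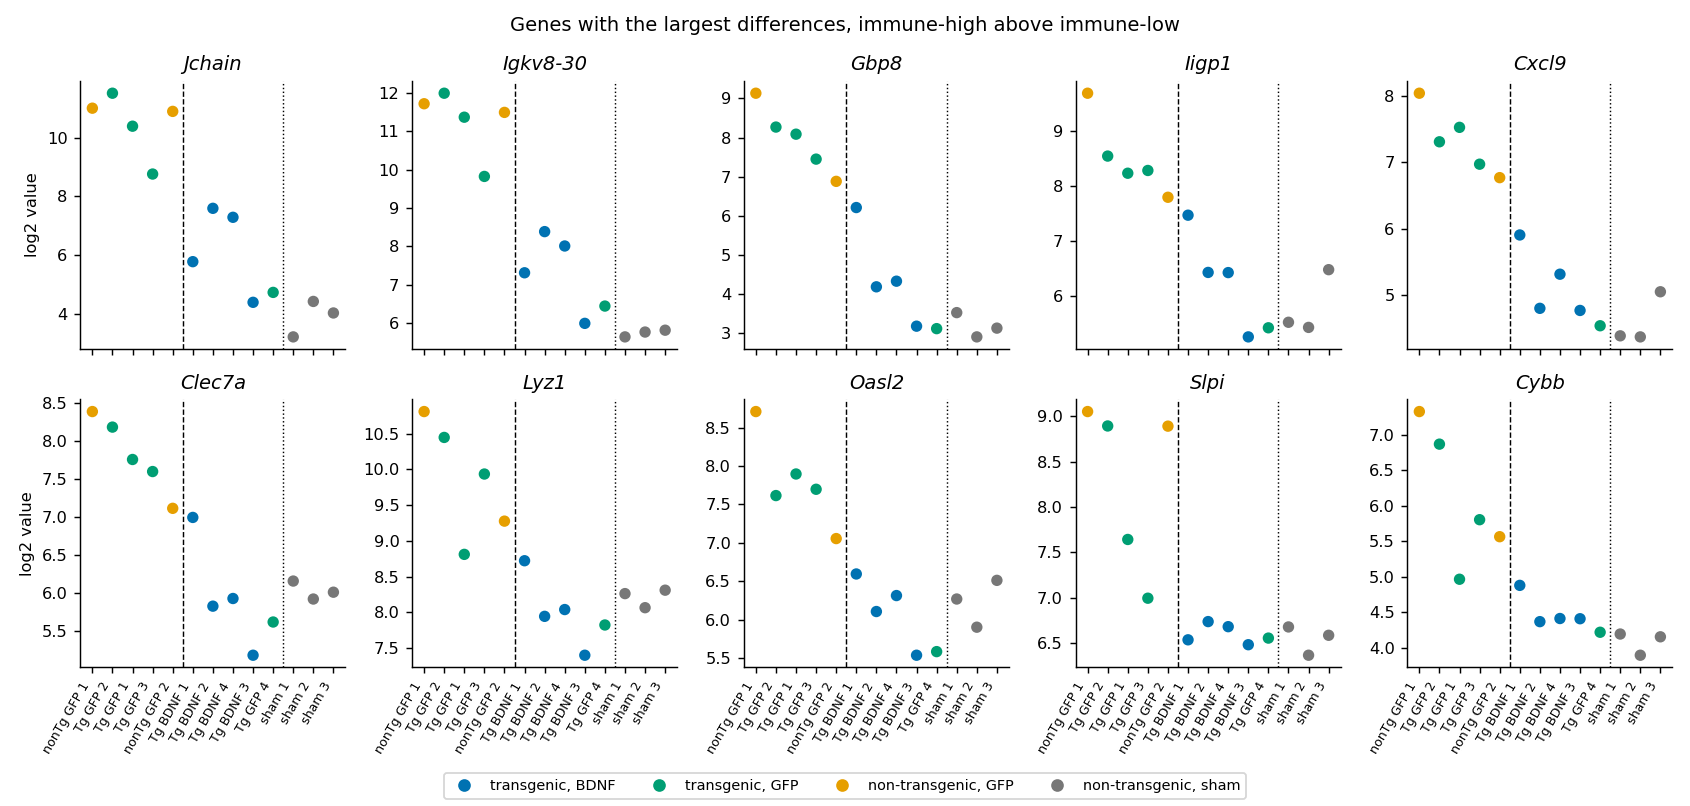
Log2 values of the 10 genes with the largest differences among those whose arrays did not overlap between the classes, one panel per gene, with the hippocampal arrays in order of score and the sham arrays last; each panel has its own vertical axis, which does not start at 0. For Gbp8 and Iigp1 transgenic BDNF 1 is the highest immune-low array, for Jchain and Igkv8-30 transgenic BDNF 2 is.

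GTPases induced by interferon gamma followed the order of the score more closely. Gbp8, a guanylate-binding protein, read 9.13, 8.27, 8.09, 7.45 and 6.88 on the immune-high arrays, 6.21, 4.18, 4.33, 3.17 and 3.11 on the immune-low arrays, and 3.52, 2.90 and 3.12 on the sham arrays, a difference of 3.76 ± 0.68. Iigp1, an immunity-related GTPase, read 9.68, 8.54, 8.23, 8.28 and 7.80 on the immune-high arrays, 7.47, 6.43, 6.43, 5.26 and 5.43 on the immune-low arrays, and 5.53, 5.44 and 6.48 on the sham arrays, a difference of 2.30 ± 0.51. In both genes transgenic BDNF 1 lay just below the immune-high class and the lowest pair of arrays lay within or below the sham range. A second probe set of Iigp1 gave a difference of 2.25 with classes that overlapped. Gbp8 is not in the list of interferon gamma GTPases and regulators. Of 14 genes of this list past the filter, 12 had a difference above 0, with a median of 1.21. Among these 14 only Iigp1 and Gbp7 did not overlap, against 1.11% of all genes that were higher.

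Gbp2 read 9.96, 9.01, 8.95, 8.97 and 8.22 against 8.32, 7.28, 7.26, 6.21 and 6.15, and Igtp, also called Irgm3, read 10.65, 9.41, 9.86, 9.72 and 8.34 against 8.94, 7.80, 7.98, 6.72 and 6.72. Their differences were 1.98 ± 0.49 and 1.96 ± 0.56. In both, the overlap came from transgenic BDNF 1 lying above non-transgenic GFP 2, and no other pair of arrays crossed. Gbp6 differed by 2.19 ± 0.55, Irgm2 by 1.63 and Irgm1 by 1.51. The receptor chains Ifngr1 and Ifngr2 differed by 0.13 and -0.17, and Jak2, the kinase attached to the receptor, by -0.02. The GTPases therefore differed between the classes while the transcripts of the receptor showed small differences in opposite directions. Irf1 and Irf8, transcription factors of the interferon response, differed by 0.50 and 0.66.

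MHC class I presentation genes all had differences above 0, in 13 of 13 past the filter, with a median of 0.999. Of these 13, 6 were higher, against 1.11% of all genes. H2-K1, a class I heavy chain, read 12.11, 11.60, 11.66, 11.54 and 11.16 on the immune-high arrays, 10.87, 10.38, 10.30, 9.60 and 9.501 on the immune-low arrays, and 9.91, 9.46 and 10.10 on the sham arrays. Its difference was 1.48 ± 0.30, and its probe set may also read other class I heavy chains. The other H2-K1 probe sets gave 1.15 with overlap, and 1.71 and 0.74 without overlap. B2m, the light chain of class I, read 12.45, 12.28, 12.19, 11.96 and 11.87 on the immune-high arrays and 11.75, 11.40, 11.35, 10.67 and 10.51 on the immune-low arrays, a difference of 1.01 ± 0.26. Its values on these 10 arrays lay in the same order as the score, with the lowest pair below the sham arrays, which read 10.93, 10.72 and 11.08.

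The immunoproteasome subunits Psmb8 and Psmb9, which cut proteins into class I peptides, differed by 1.36 ± 0.31 and 1.37 ± 0.35. Psmb8 read 8.79, 8.10, 8.05, 7.75 and 7.57 against 7.26, 6.80, 6.998, 6.01 and 6.38, and Psmb9 had its narrowest gap, 0.07, between non-transgenic GFP 2 and transgenic BDNF 1. Tap1, a subunit of the peptide transporter, differed by 0.999 ± 0.28. Nlrc5, the transactivator of class I genes, differed by 1.57 ± 0.43, with transgenic BDNF 1 at 5.26 just above non-transgenic GFP 2 at 5.17. The list mean ran from 8.24 to 9.34 on the immune-high arrays, 7.51 to 8.23 on the immune-low arrays and 7.51 to 7.76 on the sham arrays.

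Among 11 genes of the class II pathway other than the 4 that made the score, 3 were higher, against 1.11% of all genes. The median difference of the 11 was 0.54. H2-Oa, a subunit of the H2-O modulator of peptide loading, read 7.04, 6.24, 6.78, 5.58 and 5.70 against 5.23, 4.93, 4.70, 4.53 and 4.94, a difference of 1.40 ± 0.31. H2-DMa, of the peptide exchange complex, differed by 0.54 ± 0.13, and Ifi30, a thiol reductase of the endosome, by 0.70 ± 0.15, both without overlap. Ciita, the transactivator of class II genes, differed by 0.30, while Rfx5, Rfxank and Rfxap, which bind class II promoters, differed by -0.01, -0.09 and -0.12. Among these members the larger differences were those of genes of loading and processing. These genes are close in function to the score, and their differences are not independent of how the classes were made.

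Type I interferon response genes had a median difference of 0.62, with 23 of 24 above 0. Oasl2, Ifitm3 and Samd9l, 3 of the 24, were higher, against 1.11% of all genes. Oasl2, an oligoadenylate synthetase-like protein, read 8.71, 7.62, 7.90, 7.70 and 7.06 on the immune-high arrays, 6.59, 6.11, 6.31, 5.54 and 5.58 on the immune-low arrays, and 6.27, 5.90 and 6.51 on the sham arrays, a difference of 1.77 ± 0.34. Ifitm3, a membrane protein that blocks viral entry, differed by 1.04 ± 0.23. Ifit3 differed by 1.21 ± 0.28 and Ifit1, which binds foreign RNA ends, by 1.18 ± 0.35. On the sham arrays Ifit1 read 5.75, 5.59 and 6.21, above 4 of the 5 immune-low arrays, which read 5.21, 5.30, 4.99 and 4.85. The list mean was 5.98 to 6.50 on the immune-low arrays and 6.23 to 6.51 on the sham arrays, so here the low class did not lie above the sham animals.

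Promoter sequences of interferon-response genes are shown because members of these lists differed together and a regulatory element for them is well defined. The interferon-stimulated response element was searched as GAAA, any 2 bases and GAAA again, on either strand, in RefSeq promoters of assembly GRCm38.p6, 250 bases before to 50 after the start of a gene, and matches can overlap other motifs. The letters were in 3.44% of 32851 windows. By gene, they were in 3.5% of 11954 compared genes with a window, in 16 of 135 higher genes (11.9%), in 3 of 50 lower genes (6%), in 10 of 17 type I interferon genes (58.8%) and in 6 of 12 interferon gamma genes (50%). Of the 10 genes with the largest differences among those without overlap, 7 had a window, and Cybb was the only one of these to hold the motif; the windows of Igkv8-30, Gbp8 and Iigp1 were not searched. The windows of Jchain, Cxcl9, Clec7a, Lyz1, Oasl2 and Slpi did not hold these letters, which says nothing of the factors that bind there. The choice of Gbp2, Igtp, Ifit3 and Ifit1 was made with their values known. In their lists, they had the largest differences among genes that held the motif and rose with the entorhinal score described below. Cybb is printed because it held the motif. That each printed window holds a match was therefore fixed by the choice. The strand of the gene is printed 5′ to 3′, and capitals mark the motif or its reverse complement, TTTC, any 2 bases and TTTC. The windows are chr3:142620413-142620712 (plus strand) for Gbp2, chr11:58199306-58199605 (plus) for Igtp, chr19:34583279-34583578 (plus) for Ifit3, chr19:34640639-34640938 (plus) for Ifit1 and chrX:9469275-9469574 (minus) for Cybb.
Gbp2: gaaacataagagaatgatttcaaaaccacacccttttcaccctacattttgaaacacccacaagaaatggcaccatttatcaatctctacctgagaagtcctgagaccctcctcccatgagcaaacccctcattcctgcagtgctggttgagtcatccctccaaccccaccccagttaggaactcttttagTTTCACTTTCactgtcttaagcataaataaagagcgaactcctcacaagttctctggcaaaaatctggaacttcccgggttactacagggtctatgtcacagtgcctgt
Igtp: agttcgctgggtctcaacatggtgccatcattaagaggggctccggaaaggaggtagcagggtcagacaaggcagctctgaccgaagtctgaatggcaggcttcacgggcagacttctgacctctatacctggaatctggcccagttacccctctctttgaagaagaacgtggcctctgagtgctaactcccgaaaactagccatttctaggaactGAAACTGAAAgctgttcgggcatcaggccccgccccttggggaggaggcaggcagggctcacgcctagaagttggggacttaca
Ifit3: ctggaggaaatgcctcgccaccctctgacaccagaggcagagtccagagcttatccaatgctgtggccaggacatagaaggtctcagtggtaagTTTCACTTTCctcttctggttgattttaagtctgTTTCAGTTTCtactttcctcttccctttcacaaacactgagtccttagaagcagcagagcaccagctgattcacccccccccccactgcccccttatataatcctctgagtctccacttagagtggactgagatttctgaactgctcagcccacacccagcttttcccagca
Ifit1: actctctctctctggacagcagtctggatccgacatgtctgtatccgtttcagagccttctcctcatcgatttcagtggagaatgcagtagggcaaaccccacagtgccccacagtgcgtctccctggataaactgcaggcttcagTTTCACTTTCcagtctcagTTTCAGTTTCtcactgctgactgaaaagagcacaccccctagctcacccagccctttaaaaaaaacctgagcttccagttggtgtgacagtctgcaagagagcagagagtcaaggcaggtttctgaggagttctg
Cybb: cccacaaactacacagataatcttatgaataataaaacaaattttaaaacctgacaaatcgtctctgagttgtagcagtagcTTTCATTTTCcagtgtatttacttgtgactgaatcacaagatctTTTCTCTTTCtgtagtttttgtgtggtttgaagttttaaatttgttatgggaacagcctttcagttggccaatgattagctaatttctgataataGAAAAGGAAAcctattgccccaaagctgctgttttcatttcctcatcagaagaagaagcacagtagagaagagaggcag
Gbp2 and Igtp each held 1 match, Ifit3 and Ifit1 each held 2, and Cybb held 3.

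Chemokines that draw T cells and B cells were among the higher genes. Cxcl9, an interferon gamma-induced ligand of Cxcr3, read 8.04, 7.31, 7.53, 6.97 and 6.77 on the immune-high arrays, 5.90, 4.80, 5.31, 4.76 and 4.53 on the immune-low arrays, and 4.38, 4.37 and 5.05 on the sham arrays. Its difference was 2.26 ± 0.33, and the nearest arrays of the classes were 0.86 apart. Cxcl13, which draws B cells, read 7.18, 7.11, 7.71, 6.44 and 6.83 against 5.83, 5.80, 5.62, 5.52 and 5.57, a difference of 1.39 ± 0.22, and its other probe set gave 3.05, also without overlap. Of 20 chemokine and receptor genes past the filter, 5 were higher, against 1.11% of all genes. Besides Cxcl9 and Cxcl13 these were Ccl8, Ccl12 and the receptor Cxcr6, and the list median was 0.15. Ccl5, a T cell product, differed by 1.70 ± 0.49 and Cxcl10 by 1.21 ± 0.33, both with transgenic BDNF 1 inside the immune-high range. Ccl3 and Ccl4, made by activated microglia, differed by 0.17 and -0.05, and Cx3cl1, a neuronal chemokine, by -0.02.

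Genes shared by all leukocytes stood apart between the classes in most cases. Of 15 pan-leukocyte genes past the filter, 9 were higher, against 1.11% of all genes, with a median of 0.51. Ptprc, the CD45 phosphatase, read 8.63, 8.54, 8.10, 7.43 and 7.70 on the immune-high arrays, 7.34, 7.29, 7.20, 6.58 and 6.41 on the immune-low arrays, and 6.84, 6.89 and 6.95 on the sham arrays. Itgal, the integrin chain of LFA-1, differed by 1.26 ± 0.33, Itgb2, its partner, by 0.95 ± 0.22, and Cd48 by 0.94 ± 0.18. The other Itgal probe set gave 0.11 with overlap. Of 18 T and NK cell genes past the filter, Cd52 and Cxcr6 were higher, and the median was 0.13. Cxcr6 is also counted with the chemokine receptors and Cd52 with the plaque-associated microglia genes. Cd3d and Cd3e, chains of the T cell receptor complex, differed by 0.34 and 0.15 with overlapping classes. Cd4, Cd8a, Gzmb and Prf1 differed by -0.04, -0.06, 0.10 and 0.02, and Cd3g did not pass the filter. The T cell list mean was 5.83 to 6.25 on the immune-high, 5.52 to 5.84 on the immune-low and 5.52 to 5.61 on the sham arrays.

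Of 9 genes of dendritic cells, monocytes and neutrophils past the filter, Itgax and Plac8 were higher, against 1.11% of all genes. Itgax is also counted with the plaque-associated microglia genes. Itgax, the CD11c integrin, differed by 0.98 ± 0.23 and Plac8 by 0.62 ± 0.17, but Flt3 and Ccr2 differed by 0.05 and -0.07, and S100a8 and S100a9 did not pass the filter. The list mean ran from 5.38 to 5.66 on the immune-high and 5.16 to 5.42 on the immune-low arrays. Of 9 border macrophage genes, 1, Ms4a7, was higher, by 0.52 ± 0.13. Mrc1, Cd163, Lyve1 and Pf4 differed by 0.30, 0.14, -0.06 and -0.08 with overlap, and the list median was 0.00.

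Microglial genes fell into unlike sets. Of 19 homeostatic microglia genes, 0 were higher, against 1.11% of all genes, and the median was 0.21. P2ry12, Cx3cr1 and Tmem119, defining genes of resting microglia, differed by -0.01, 0.19 and 0.39 with overlap. Fcrls, an Fc receptor-like gene of resting microglia, read 7.07, 6.50, 7.10, 6.83 and 5.74 on the immune-high arrays, 8.07, 7.16, 7.71, 8.18 and 6.98 on the immune-low arrays, and 8.44, 8.29 and 8.61 on the sham arrays. All 10 injected arrays were thus below the sham arrays for Fcrls, with the lowest values on immune-high arrays and transgenic GFP 1 and non-transgenic GFP 1 inside the immune-low range. Its class difference was -0.97 ± 0.35.

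Of 23 genes of plaque-associated microglia, 4 were higher, against 1.11% of all genes, with a median of 0.29. Clec7a, the beta-glucan receptor Dectin-1, read 8.39, 8.19, 7.76, 7.60 and 7.12 on the immune-high arrays, 6.996, 5.83, 5.93, 5.18 and 5.62 on the immune-low arrays, and 6.16, 5.92 and 6.01 on the sham arrays. Its difference was 1.90 ± 0.38, and transgenic BDNF 1 lay 0.12 below the immune-high class. Cst7 differed by 1.27 ± 0.37 and Gpnmb by 0.93, with overlap. Trem2, Apoe and Lpl, lipid-handling genes of these cells, differed by 0.28, 0.05 and -0.22, so members of the list differed in size and sign. Lyz1, a lysozyme of macrophages whose probe set can also read the near-identical Lyz2, read 10.81, 10.45, 8.81, 9.94 and 9.28 against 8.72, 7.95, 8.04, 7.40 and 7.82, and 8.26, 8.07 and 8.31 on the sham arrays. Its difference was 1.87 ± 0.42, and its other probe sets gave 1.75 and 0.10 with overlap.

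Of 14 Fc receptor and phagocytosis genes, 6 were higher, against 1.11% of all genes, with a median of 0.52. Cybb, the catalytic subunit of the phagocyte NADPH oxidase whose promoter is printed above, read 7.32, 6.87, 4.97, 5.80 and 5.56 on the immune-high arrays, 4.88, 4.37, 4.41, 4.41 and 4.22 on the immune-low arrays, and 4.20, 3.90 and 4.16 on the sham arrays. Transgenic GFP 1 lay 0.09 above transgenic BDNF 1, and the 2 highest arrays read far above the other immune-high arrays, at a class difference of 1.65 ± 0.45. The other Cybb probe sets gave 1.01 without overlap and 0.73 with overlap. The activating receptors Fcgr4 and Fcgr1 differed by 0.85 ± 0.17 and 0.61 ± 0.13, and the inhibitory receptor Fcgr2b by 0.15. The other Fcgr1 probe set gave 0.30 with overlap. Of 12 complement genes, Serping1 and C1ra were higher, by 0.92 ± 0.28 and 0.70 ± 0.13, and the median was 0.16. C1qa, a recognition subunit of C1, differed by 0.80 ± 0.22 with overlap. Of 16 lysosome genes all had a difference above 0, with a median of 0.17, and 0 were free of overlap; Ctsc and Ctss differed by 0.77 and 0.67. Slpi, a secreted protease inhibitor, read 9.05, 8.89, 7.64, 6.99 and 8.89 against 6.54, 6.74, 6.68, 6.48 and 6.55, with the immune-low arrays at the sham level of 6.68, 6.37 and 6.58.

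In the list of Toll-like receptor and NF-kB genes, 3 of 25 were higher, against 1.11% of all genes. These were Casp1, Casp4 and Nlrp3, and the list median was 0.19. Casp1, the inflammasome protease, differed by 0.59 ± 0.12. The cytokine genes Il1b, Tnf and Il1a differed by 0.04, -0.03 and 0.14. The inflammasome proteases were thus free of overlap and these cytokine transcripts were not.

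**Figure D3:**
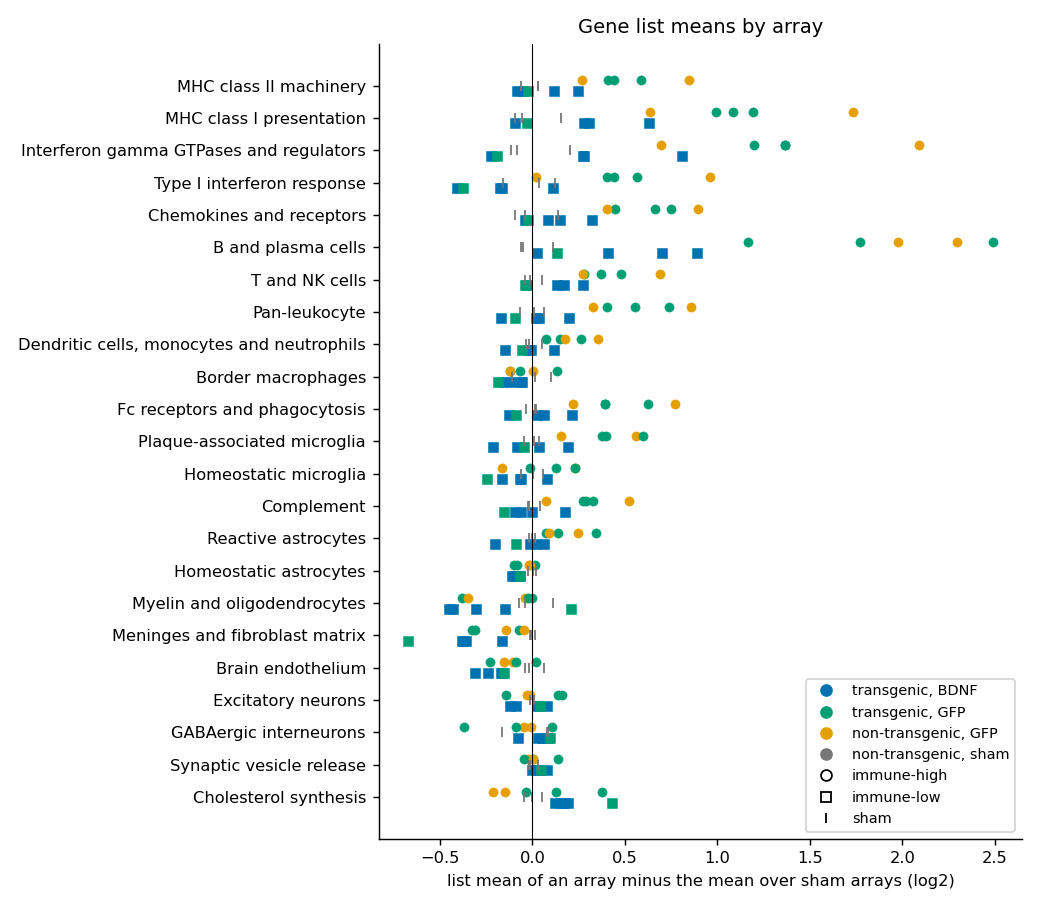
Mean over the genes of a list on each hippocampal array, minus the mean over the 3 sham arrays, in log2 units, for 23 of the 36 lists; circles are immune-high, squares immune-low and bars sham arrays, and colours give the labelled group. Means of antigen presentation, B and plasma cell and pan-leukocyte genes do not overlap between the classes, while means of neuronal and synaptic lists do. The nearest immune-high and immune-low list means are 8.236 and 8.232 for MHC class I and 7.360 and 7.341 for MHC class II.

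Astrocyte, vascular and meningeal lists had medians from 0.04 to 0.21. Of 21 reactive astrocyte genes, 4 were higher, against 1.11% of all genes. These were Osmr, Vim, Srgn and Aspg, and the list median was 0.14. Vim, an intermediate filament, differed by 0.66 ± 0.18, and Osmr, the oncostatin M receptor, by 0.72 ± 0.24. Gfap, the astrocyte intermediate filament, read 10.81, 11.33, 10.68, 11.57 and 10.54 on the immune-high arrays, 10.69, 10.29, 10.44, 9.96 and 10.18 on the immune-low arrays, and 10.86, 10.53 and 10.65 on the sham arrays. Its classes overlapped, at a difference of 0.68 ± 0.23. Serpina3n, another reactive gene, differed by -0.25. Of 17 homeostatic astrocyte genes 0 were higher, with a median of 0.04.

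Of 8 endothelial adhesion genes, Icam1 and Vcam1, ligands of leukocyte integrins, were higher, against 1.11% of all genes. They differed by 0.89 ± 0.16 and 0.42 ± 0.09. Vcam1 read 8.60, 8.55, 8.42, 8.45 and 8.21 on the immune-low arrays, all below the sham values of 8.80, 8.78 and 8.71, and 8.78 to 9.10 on the immune-high arrays. The other Vcam1 probe sets gave 0.28 and 0.20 with overlap. Of 16 brain endothelium and 12 mural cell genes, 0 were higher, with medians of 0.09 and 0.10. Of 16 meningeal and fibroblast matrix genes, 4 were higher, Col3a1, Igf2, Igfbp2 and Col1a1, with a median of 0.21. Col3a1, a fibrillar collagen, read 6.53, 7.01, 7.45, 6.47 and 6.89 on the immune-high arrays, 6.01, 6.21, 6.38, 5.84 and 5.47 on the immune-low arrays, and 6.89, 6.44 and 6.53 on the sham arrays. For this gene all immune-low arrays lay below the sham range, transgenic BDNF 4 only just, and transgenic GFP 1 and 2 lay above it. The other Col3a1 probe set, at a mean of 3.68, gave 0.07 with overlap. The meningeal list mean was 7.29 to 7.57 on the immune-high, 6.95 to 7.46 on the immune-low and 7.61 to 7.63 on the sham arrays, and Dcn, a proteoglycan of fibroblasts, differed by -0.35. Whether the amount of meninges in the dissected tissue bears on the class differences was not tested. In 8 choroid plexus and 2 erythrocyte genes, 0 were free of overlap, with medians of -0.05 and 0.00.

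Neuronal genes differed little between the classes. Medians were 0.02 over 16 genes of excitatory neurons, 0.03 over 17 genes of dentate granule cells and CA fields, -0.10 over 16 genes of GABAergic interneurons, -0.04 over 16 genes of synaptic vesicle release and 0.05 over 18 immediate early genes, and 0 of these genes was free of overlap. Calb2, the calretinin of interneurons, differed by -0.63 ± 0.47, and most of that came from transgenic GFP 2 at 7.09 against 9.03 to 9.64 on the other immune-high arrays. Medians over 14 myelin genes, 11 oligodendrocyte precursor genes, 18 respiratory chain genes and 12 proliferation genes were 0.06, 0.03, -0.05 and 0.08, again with 0 members free of overlap. In 19 cholesterol synthesis genes, 0 had a difference above 0 and 0 were free of overlap, with a median of -0.20. The list mean was 8.56, 8.74, 9.15, 8.90 and 8.62 on the immune-high and 8.92, 8.89, 8.94, 8.96 and 9.20 on the immune-low arrays. The 2 non-transgenic arrays and transgenic GFP 2 were thus low and transgenic GFP 1 was among the highest. The sham arrays, which were also non-transgenic, had list means of 8.72 to 8.82. Whether genotype bears on the class difference of this list was not tested.

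The Bdnf and App probe sets did not separate the classes. Bdnf read 9.12, 9.10, 9.16, 8.35 and 8.60 on the immune-high arrays and 8.69, 8.60, 8.99, 8.57 and 8.80 on the immune-low arrays, 4 of which were BDNF arrays. The difference was 0.14 ± 0.18, and whether its probe set reads the vector's transcript was not tested. App differed by -0.04 ± 0.04. It read 13.03 to 13.25 on the 8 transgenic arrays, 13.17 and 13.23 on the non-transgenic GFP arrays and 13.11 to 13.20 on the sham arrays. The App probe set thus did not set the genotypes apart, and whether it reads the transgene was not tested. Ntrk2, the receptor TrkB, differed by -0.01 ± 0.08. Medians over 13 BDNF and TrkB signalling genes and 18 amyloid processing genes were 0.00, and 0 of these genes was free of overlap. Thy1 read 12.65 and 12.56 on the 2 non-transgenic immune-high arrays, 12.63 to 12.67 on the sham arrays and 13.84 to 13.99 on all 8 transgenic arrays, so its class difference of -0.51 ± 0.32 followed genotype.

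The genes that were lower had small differences and belonged to none of the lists. Rps6, a protein of the small ribosomal subunit, read 7.70, 7.40, 7.64, 7.29 and 7.34 on the immune-high arrays, 8.49, 8.14, 8.51, 8.04 and 7.89 on the immune-low arrays, and 7.51, 8.54 and 8.26 on the sham arrays. Its difference was -0.74 ± 0.15, and sham array 1 lay inside the immune-high range. The other Rps6 probe set gave -0.43 without overlap, but had a mean of 3.56, under the filter level of 4.33. Tmem222, a transmembrane protein, read 8.97, 8.89, 8.91, 9.004 and 8.75 against 9.34, 9.20, 9.51, 9.40 and 9.44, a difference of -0.47 ± 0.07. Iqcc differed by -0.49 ± 0.12 and Zfp33b, a zinc finger protein, by -0.48 ± 0.10. Tenm4, a teneurin of neuronal wiring, differed by -0.34 ± 0.09, with gaps of 0.01 between the classes, and Oprl1, the nociceptin receptor, by -0.24 ± 0.07. Gm3912, Cdkn2aipnl, Ptcra and 4933404G15Rik differed by -0.29, -0.28, -0.26 and -0.25. The other probe sets of Tenm4 gave -0.335 and -0.036, of Oprl1 -0.190 and -0.265, and of Cdkn2aipnl -0.174, all with overlap. For 13 of the 71 lower genes all sham arrays lay above all immune-high arrays.

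**Figure D4:**
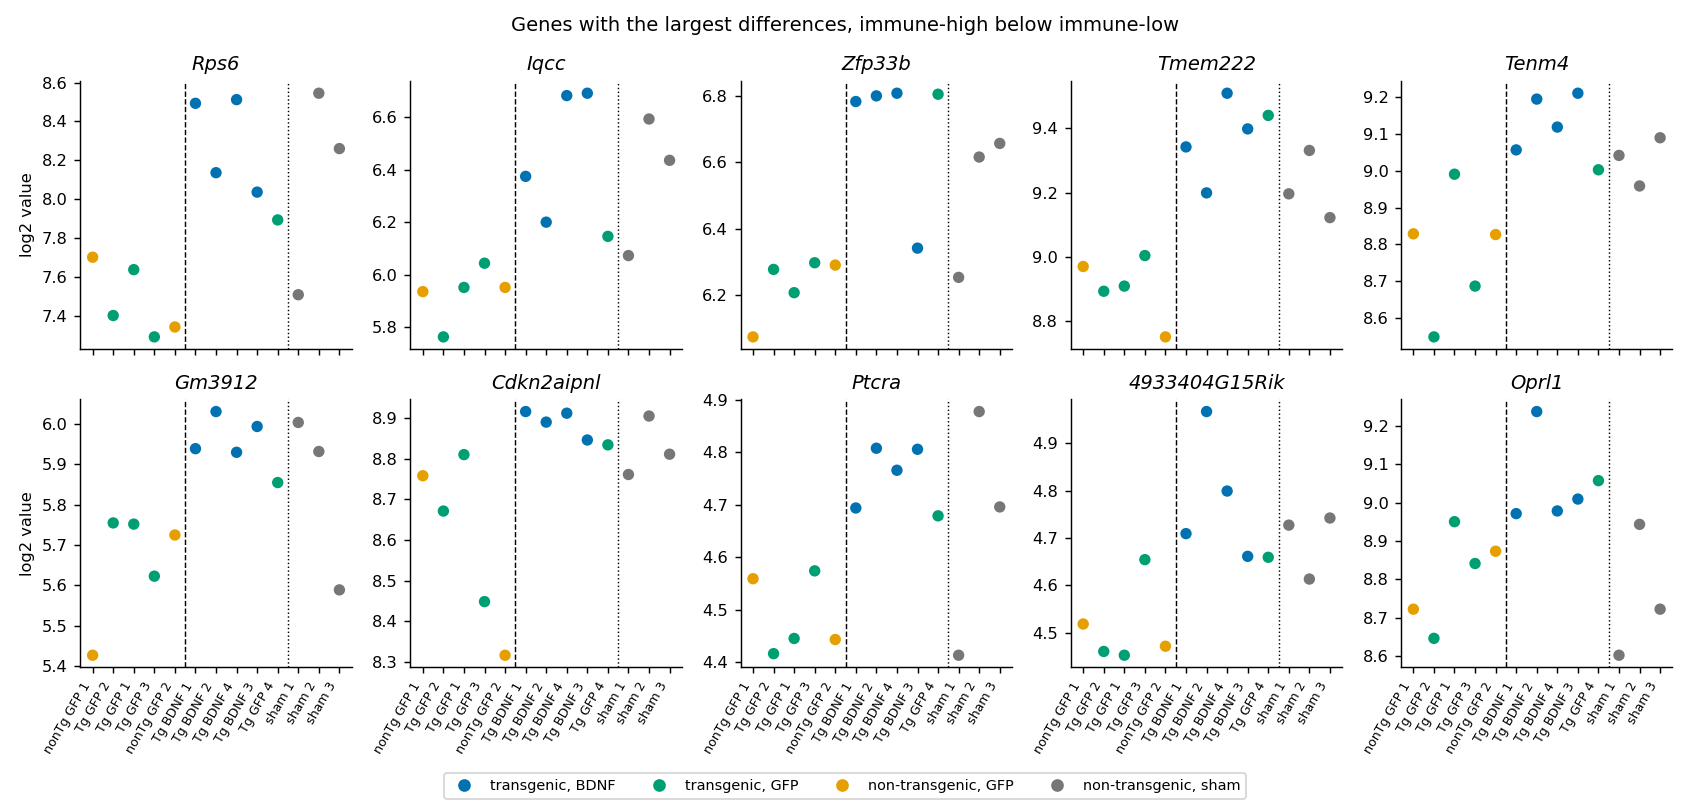
Log2 values of the 10 genes with the largest negative differences among those whose arrays did not overlap, one panel per gene, with the hippocampal arrays in order of score and the sham arrays last; each panel has its own vertical axis, which does not start at 0. The differences run from -0.74 for Rps6 to -0.24 for Oprl1, and sham arrays fall on either side.

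Set against the sham arrays, the higher genes were of more than one kind. In 103 of the 166, all sham arrays lay below all 5 immune-high arrays, and in the other 63 a sham array lay inside or above the immune-high range. In 64 the sham mean was below the immune-low mean. Transgenic BDNF 1 was the highest immune-low array in 90 of the 166 genes, transgenic GFP 4 the lowest in 59, and non-transgenic GFP 1 the highest of all in 88. The order within a class was therefore not the same from gene to gene.

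The labelled treatments were compared directly, as BDNF against GFP in transgenic hippocampus (n = 4 each). Over 14941 genes limma called 0 at an adjusted p under 0.05, 0% of those tested, and 793 had an unadjusted p under 0.05, of which 274 were higher with BDNF and 519 lower. The smallest adjusted p in limma was 0.11. For the genes with the largest class differences, GFP minus BDNF was 2.59 ± 1.15 for Jchain, 2.48 ± 0.92 for Igkv8-30, 2.26 ± 0.99 for Gbp8 and 1.22 ± 0.67 for Iigp1 (moderated standard errors, adjusted p = 0.901 each in limma). Over the 166 higher genes the median of GFP minus BDNF was 0.30. These genes were chosen with all BDNF arrays in the immune-low class, so this median is not independent of that choice. In these genes transgenic GFP 4, an immune-low GFP array, lay with the BDNF arrays by the way the classes were made: its Gbp8 value was 3.11 against 7.45 to 8.27 on the other transgenic GFP arrays.

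The relation of other genes to the score was tested on the 10 injected entorhinal arrays. Here limma fitted the slope of each gene on the array's own score, in log2 units per log2 unit of score, over the same 14937 genes. The scores ran from 6.96 to 11.40, with transgenic GFP 4 at 11.40, non-transgenic GFP 1 at 11.29 and transgenic BDNF 1 at 10.82 at the upper end. In this region, then, the array with the third highest score was a BDNF array and transgenic GFP 4 was the highest. The labels do not tie the arrays of both regions to one animal. At an adjusted p under 0.05, limma found that 221 genes rose with the score, 1.48% of those tested, and 3 fell, 0.0201%. The genes that fell were Pcdhb21, Nek3 and Prdm16os, with slopes of -0.21, -0.15 and -0.12. The count of rising genes was 125 without transgenic GFP 4, 124 without non-transgenic GFP 1 and 43 without both of these arrays, and it was 115 with Xist as a covariate.

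Of the 166 genes that were higher in the hippocampus, 78 rose with the entorhinal score, 47.0% of the higher genes and 35.3% of the 221, and 0 fell. A positive slope was found in 154 of the 166, against 41.9% of all genes, and the median slope was 0.21 against -0.01. This count fell to 50 without transgenic GFP 4, to 48 with Xist as a covariate and to 20 without both arrays of highest score. Of the 71 genes that were lower in the hippocampus, 0 were called in either direction and 52 had a negative slope. These arrays had no role in choosing the classes. With the replicate number as a block, limma called 0 rising genes and 0 of the higher genes, at a smallest adjusted p of 0.0503, so the calls hold without that block and not with it.

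The steepest slopes among the higher genes were those of genes with large hippocampal differences. They were 1.30 ± 0.20 for Igkv8-30 (limma adjusted p = 0.00601), 1.22 ± 0.09 for Gbp8 (limma adjusted p = 4.36e-05), 1.21 ± 0.23 for Jchain (limma adjusted p = 0.0201) and 0.97 ± 0.07 for Iigp1 (limma adjusted p = 3.71e-05), each over n = 10 arrays with moderated standard errors. Cxcl9 rose by 0.92 ± 0.11 and Clec7a by 0.94 ± 0.12 per unit (limma adjusted p = 0.000776 and 0.00131). Among genes without overlap in the hippocampus, the smallest adjusted p in limma, 3.71e-05, was shared by B2m, Lyz1, Mpeg1, a pore-forming protein of phagocytes, and Iigp1. In the same set, these were followed by Cd48, AW112010, Gbp8, H2-K1, Ifitm3 and AU020206, with adjusted p from 4.36e-05 to 0.000103 in limma. Of the 10 genes with the largest hippocampal differences among those without overlap, only Slpi was not called, at a slope of 0.62 ± 0.17 and an adjusted p of 0.161 in limma.

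By list, genes rose with the entorhinal score in 11 of 13 MHC class I genes, 11 of 14 interferon gamma genes, 18 of 24 type I interferon genes, 11 of 15 pan-leukocyte genes and 8 of 14 Fc receptor and phagocytosis genes, against 1.48% of all genes by limma. Of the class II genes outside the score 6 of 11 rose, of the chemokines and receptors 7 of 20 and of the plaque-associated genes 7 of 23. Homeostatic microglia had 6 of 19 rising, among them Tmem119, Aif1 and Csf1r, but P2ry12 was not called and Fcrls had a slope of -0.03 ± 0.12. Of B and plasma cell genes only Jchain rose; Ighm had a slope of 1.25 ± 0.29 and an adjusted p of 0.0669 in limma, and Igha 0.80 ± 0.21 and 0.127. In T and NK cells 4 of 18 rose, in complement 4 of 12, in dendritic cells, monocytes and neutrophils 3 of 9, in reactive astrocytes 4 of 21, in lysosome genes 5 of 16 and in Toll-like receptor and NF-kB genes 3 of 25. Gfap, whose hippocampal classes overlapped, rose by 0.21 ± 0.04 (limma adjusted p = 0.0317). Border macrophages, endothelial adhesion and proliferation each had 1 rising gene, Ms4a7, Icam1 and Rrm2. In the meningeal list 0 of 16 rose, and Col3a1, one of its higher genes in the hippocampus, had a slope of 0.14 ± 0.07 and an adjusted p of 0.657 in limma. The neuronal, synaptic, myelin, vascular, amyloid, BDNF signalling, cholesterol and respiratory chain lists had 0 called genes.

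**Figure D5:**
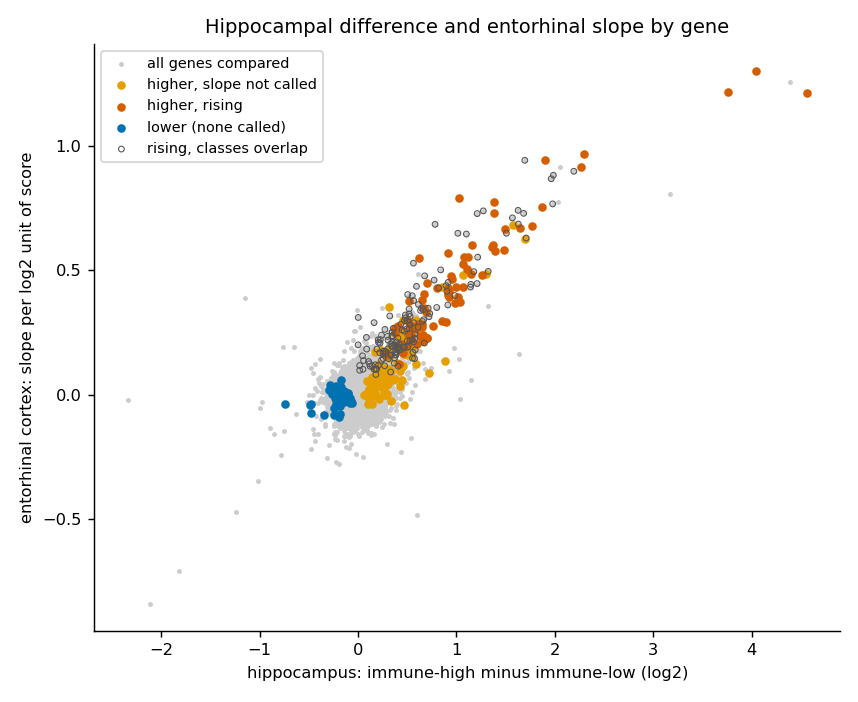
Slope of each gene on the score over the 10 injected entorhinal arrays (vertical axis, log2 per log2 unit of score) against the difference of the class means in the hippocampus (horizontal axis, log2), one point per gene compared. Genes that were higher and also rose with the entorhinal score lie to the upper right, led by Jchain, Igkv8-30 and Gbp8, and the lower genes lie near a slope of 0.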

How the data were processed

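Expression in mouse entorhinal cortex and hippocampus was measured on 26 Affymetrix arrays. The authors deposited log2 values made with RMA, per the submitters' processing notes; RMA brings arrays to a common distribution, so a shift of most genes cannot be seen. No RMA version is named. Of 45101 probe sets, 34958 had 1 gene symbol, 932 several and 9211 no entry in the platform annotation, and symbols were updated through RefSeq names. Each gene was read from its single-symbol probe set with the highest mean. The filter on low values removed genes with a mean under 4.33, percentile 30 over the probe sets, and the 4 scoring genes were set aside.

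The classes were compared by difference of means, standard error and overlap, without a test. Models for labelled groups and entorhinal slopes used limma 3.58.1 under R 4.3.3 (lmFit, eBayes, 2-sided, Benjamini-Hochberg over all genes, adjusted p under 0.05), and were tested on simulated data. The number of arrays limits the precision. Members and the 36 gene lists were chosen with earlier results of these data known. Some genes belong to several lists, so the list counts are not independent. Named genes were the 10 with the largest class difference per direction without overlap, up to 10 with the smallest entorhinal p, up to 4 list members by absolute difference, and Bdnf, App, Ntrk2, Gfap, Thy1 and Xist; other names were picked with their values in view. Alternatives covered the filter, probe sets, scaling, the score, the division of arrays, covariates and each array left out. Of these, the division at the widest gap and the use of GFP arrays only were added after seeing the data.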

Additional observations from a re-analysis of the deposited data

Results flagged for a closer look

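Within the labelled groups of 4 hippocampal arrays, the gap between an extreme array and the next was compared with the whole range of the group for the score, the list means and the named genes. It exceeded Dixon's critical value in 15 of 124 groups, and 9 of the 15 were transgenic GFP 4. Chance marks about 1 in 20 groups, but that rate applies neither to the score nor to genes named for not overlapping between the classes, in which transgenic GFP 4 stood apart from the other transgenic GFP arrays by the way the classes were made. The values are therefore a description. The score of that array was 6.174, and the other transgenic GFP arrays lay between 10.195 and 10.418. Its mean over MHC class I genes was 7.576 against 8.594 to 8.794, over type I interferon genes 6.013 against 6.793 to 6.952, over interferon gamma genes 6.829 against 8.218 to 8.385 and over complement genes 6.613 against 7.044 to 7.098.

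The choice of genes likewise fixed that Gbp8, Iigp1, Oasl2 and Zfp33b set this array apart. Gbp8 read 3.111 there against 7.448 to 8.268, Iigp1 5.430 against 8.233 to 8.544, and Oasl2 5.584 against 7.616 to 7.897. Zfp33b, one of the lower genes, went the other way, at 6.804 against 6.207 to 6.297.

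The other extreme arrays were BDNF arrays, and each of their departures was under 1 log2 unit. Transgenic BDNF 1 read 4.880 for Cybb against 4.370 to 4.414 on the other BDNF arrays. Transgenic BDNF 3 read 6.341 for Zfp33b against 6.782 to 6.807, and its mean over endothelial adhesion genes was 6.510 against 6.644 to 6.666. Transgenic BDNF 2 had a mean of 7.457 over meningeal genes against 7.237 to 7.262, and read 9.237 for Oprl1 against 8.971 to 9.009. Transgenic BDNF 4 had a mean of 8.117 over immediate early genes against 8.435 to 8.479.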

How the results depend on the processing

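The same 5 arrays were immune-high when the score was made from scaled genes or from all probe sets of the 4 genes. Relative to 166 higher and 71 lower genes, the 4 highest against the 4 lowest arrays gave 461 and 151, the 3 highest against the 3 lowest 1392 and 1058, and the 8 transgenic arrays alone 424 and 189, since fewer arrays relax the condition of no overlap. The division at the widest gap (6 against 4) gave 193 and 45, of which 90 and 11 were among the original genes, and the GFP arrays alone, with a single immune-low array, gave 2185 and 2566. Values relative to the labelled group mean gave 0 and 0, which says nothing of the data: whole labelled groups lay within 1 class, so no gene could separate. Leaving out 1 array gave 177 to 354 higher and 101 to 286 lower genes; the higher genes passed 1.5 times the original count without transgenic GFP 3 (320), non-transgenic GFP 2 (354) or transgenic BDNF 1 (269), and the lower genes in most cases. Filter, probe sets, renewed normalization and centring kept both counts within 1.5 times, at 112 to 194 and 58 to 104, but with the mean of probe sets 125 of the 166 higher and 38 of the 71 lower genes were still called, and the median over all genes moved by under 0.1.

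On the entorhinal arrays, leaving out 1 array gave 124 to 209 rising and 0 to 17 falling genes, and 50 to 77 of the higher genes rising. The lowest rising counts were those without transgenic GFP 4 (125) and without non-transgenic GFP 1 (124), and the 17 falling genes were those without transgenic BDNF 2. Without the 2 arrays of highest score there were 43 rising, 0 falling and 20 shared genes, and with Xist as a covariate 115, 0 and 48. The falling genes numbered 5 without a filter, with the mean of probe sets, with centring or with the labelled groups as a covariate, and 1 with trend and robust options in limma. With the replicate number as a block, limma called 0 rising and 0 falling genes and 0 were shared (859 at an unadjusted p under 0.05), with a smallest adjusted p of 0.0503. The labels give no pairing by number, and correlations of same-numbered arrays were -0.05, 0.12, 0.16 and 0.12 in the entorhinal cortex and ran from -0.25 to -0.02 in the hippocampus, so the numbers were not taken to pair the arrays (a transgenic BDNF array correlated best with its own number in the entorhinal cortex for numbers 3 and 4 alone); the cause of the loss was not tested. BDNF against GFP in transgenic hippocampus had 0 calls in every alternative run, the replicate block included (560 at an unadjusted p under 0.05). No list median or named gene was counted as reversed where it was recomputed. The amyloid processing median, at -0.002, did become positive with Xist as a covariate. With the labelled groups as a covariate, 5 of 36 list medians and 51 of 161 gene values moved by more than the spread between arrays.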

Other observations

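Large differences of class means also occurred in genes whose arrays overlapped. Of all genes compared, 61 differed by at least 1 and 6 by -1 or less. Pttg1, the securin of chromosome separation, read 10.99, 8.03, 8.35, 7.92 and 7.83 on the immune-high arrays, 10.85, 11.01, 10.98, 10.98 and 10.99 on the immune-low arrays, and 11.60, 11.80 and 11.52 on the sham arrays. Only non-transgenic GFP 1 of the immune-high arrays was at the level of the others, and the entorhinal slope of Pttg1 was -0.02 ± 0.30 (limma adjusted p = 0.991). Tmem87a took values near 4.26 to 5.24 on some arrays and 8.37 to 9.45 on the rest, in both classes and in the sham group.

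Genes of the Y chromosome followed the opposite pattern to Xist. Eif2s3y read 8.29 on transgenic GFP 2, 8.47 on transgenic BDNF 4, 8.50 on transgenic BDNF 3 and 8.28 on transgenic GFP 4, and 3.10 to 3.41 on all other hippocampal arrays. Xist read 5.39, 6.01, 5.72 and 5.38 on those 4 arrays. On the entorhinal arrays Xist read 5.45 on transgenic GFP 1 and 5.42 on transgenic GFP 3, and 10.88 on transgenic GFP 2 and 10.60 on transgenic GFP 4. Hippocampal and entorhinal arrays with the same group and number therefore did not share this mark in transgenic GFP 1 to 4.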
